A study of Homo sapiens with 8 samples.

Results

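Peaks on unnamed gene models were the rows of the authors' deposited table of N6-methyladenosine (m6A) peaks that carry an Ensembl gene identifier but no gene symbol. There were 1449 such peaks among 22626 (6.4%), on 1142 of 12009 gene identifiers (9.51%). The members were chosen by the missing symbol alone, and no measured value entered the choice. The table describes each model in a few words, and by that description 525 peaks lay on uncharacterised transcripts, 372 on transcripts antisense to a gene, 236 on pseudogenes, 221 on uncharacterised proteins and 55 on readthrough or joined genes. A further 28 were described as TEC, Ensembl's mark for models still to be experimentally tested, and 12 had another description or none.

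The RNA came from HCT116 cells, a human colorectal cancer line. One arm carried a non-targeting hairpin (shNC, genotype WT in the labels) and the other a hairpin against ALKBH5 (shALKBH5, ALKBH5 knockdown), stably expressed. Poly(A) RNA was fragmented, a part was kept as input, and the rest was pulled down with an m6A antibody (the IP), giving 8 libraries in 4 groups of 2. The labels name several antibodies, fragment sizes and sequencing platforms and do not say which applied. Both arms are derivatives of 1 cell line, 1 hairpin stands for the knockdown, and the labels do not state whether replicates were separate cultures.

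Every fold enrichment (read as IP over input), peak p, log2 fold between the arms and false discovery rate (FDR) below was taken from the authors' deposited table. The table holds 1 value per peak for all libraries together. No replicate error can therefore be given, the depth is unknown, and a log2 fold is 1 number for both arms. The numerator of that fold is not stated, and a fold is given below as positive or negative, not as higher or lower in the knockdown. Whether replicate spread entered the deposited p, and whether the fold was corrected for transcript level, are unstated. In bulk RNA of this kind, more methylated copies and more copies of the transcript cannot be told apart from the fold alone. A peak with an FDR of at most 0.05 is called. The targeted gene itself had 3 peaks with deposited log2 folds of -0.93 to -1.43, none called, which are differences in m6A signal and do not check the level of its transcript. Of 6 epithelial markers (EPCAM, CDH1, KRT8, KRT18, KRT19 and CDX1), all but CDX1 carried a peak.

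m6A is the most common internal mark of messenger RNA. A methyltransferase complex writes it, mostly in long exons, near stop codons and in 3′ untranslated regions, at sites whose core is often GGAC, and ALKBH5 removes it in the nucleus. Gene annotations hold many models that no nomenclature committee has named. Some are transcripts read from the strand opposite a gene. Readthrough models join the exons of neighbouring genes into 1 transcript. Processed pseudogenes are copies of a spliced messenger RNA put back into the genome, usually without introns and close in sequence to the parent gene. The reads behind a peak on any of these can also match a named gene, in the first cases by position and in the last by sequence.

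The places where such models leave the transcribed part of a named gene are the ones where their sequence can be read from the promoter table. Of the 1449 peaks, 104 touched a RefSeq promoter window (250 bases before to 50 after a gene start, build GRCh38.p14) and 37 covered at least 100 bases of 1, of which 6 were called. The 5 stretches covering them are shown for the bases before the start of the window's gene only. They are on the strand of the peak and 5′ to 3′, with capitals marking GGAC. The model antisense to SLC1A5 has a pair of called peaks at the same place, which is why 6 peaks give 5 stretches.
ENSG00000124593, uncharacterised protein, before TOMM6, chr6:41787586-41787693, plus strand: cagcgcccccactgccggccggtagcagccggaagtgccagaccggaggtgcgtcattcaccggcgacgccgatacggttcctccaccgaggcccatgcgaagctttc
ENSG00000275719, antisense to SLC1A5, chr19:46788595-46788684, plus strand: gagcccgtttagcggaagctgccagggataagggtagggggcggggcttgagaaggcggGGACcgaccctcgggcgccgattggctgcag
ENSG00000259001, ribonuclease P RNA, before PARP2, chr14:20343385-20343511, minus strand: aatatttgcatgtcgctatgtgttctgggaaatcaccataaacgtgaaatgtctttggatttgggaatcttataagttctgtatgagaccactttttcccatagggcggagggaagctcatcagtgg
ENSG00000286070, uncharacterised protein, before GGT1, chr22:24583682-24583749, plus strand: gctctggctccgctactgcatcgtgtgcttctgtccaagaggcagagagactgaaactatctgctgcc
ENSG00000274021, antisense to DUSP6, chr12:89352502-89352559, plus strand: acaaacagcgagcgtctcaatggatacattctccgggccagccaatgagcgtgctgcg

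GGAC occurred on the strand of the peak in 1 of these 5 stretches, the one before SLC1A5. Among 34943 promoter windows, 27.6% held GGAC in the stretch of the same position and strand as the SLC1A5 one, and the share was 32.7% for the TOMM6, 38.2% for the PARP2, 22.2% for the GGT1 and 18.7% for the DUSP6 stretch. On the opposite strand the GGT1 stretch alone held GGAC. Over the whole 300 bases, 66.3% of windows held it on the strand of the gene and 87.4% on either strand. A match here is a description of the letters and not a methylated site, and no match says nothing of the bases of the same peaks outside these windows. The peaks over them had deposited log2 folds of 0.94 for the TOMM6 model (FDR 0.0263), -0.60 for the SLC1A5 antisense (FDR 7.24e-07), 0.18 for the ribonuclease P model (FDR 6.31e-31), 0.72 for the GGT1 model (FDR 0.0174) and 0.98 for the DUSP6 antisense (FDR 0.0182). The peak of the GGT1 model shared 315 of its 570 bases with a peak of SNRPD3, whose fold was 0.73 (FDR 0.0288). Its value is therefore not one of the GGT1 window alone.

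Most of the unnamed peaks lay on bases that the table also lists under a named gene. Of the 1449, 904 (62.4%) shared at least 1 exonic base with a peak of a named gene, 482 on the same strand, 453 on the opposite strand and 31 on both. The median shared part was 94.0% of the unnamed peak. The kinds of model differed widely in this. The shared part was 96.4% of readthrough peaks (53 of 55) and 93.2% of uncharacterised protein peaks (206 of 221), nearly all on the same strand. For antisense peaks it was 72.3% (269 of 372), of which 265 were shared on the opposite strand. Uncharacterised transcripts were between these, with 60.6% (318 of 525), and pseudogenes stood apart with 12.3% (29 of 236). Among all 1449 peaks, 80 shared bases with a peak of a different unnamed model and 12 with another peak of the same model. These counts overlap with the 904. With such peaks merged, the 1449 peaks occupied 1402 separate loci.

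**Figure D1:**
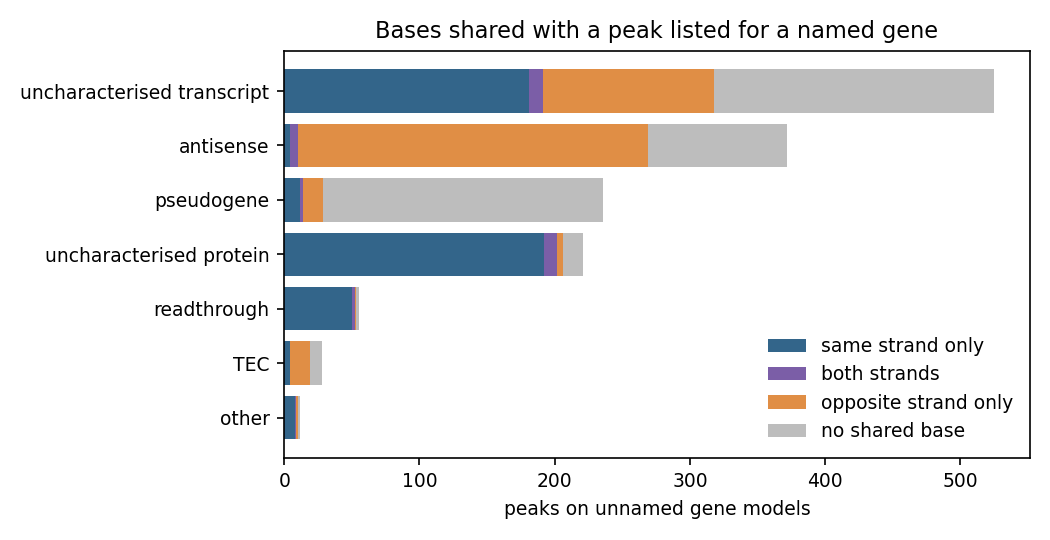
Number of peaks on unnamed gene models (horizontal axis) in each description class, split by whether the peak shares at least 1 exonic base with a peak of a named gene on the same strand, the opposite strand, both or neither. Uncharacterised proteins and readthrough models share on the same strand, antisense models on the opposite strand, and 207 of 236 pseudogene peaks share no base.

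In strength the unnamed peaks were like the rest of the table in enrichment and weaker in p. Their median deposited fold enrichment was 10.1 (quartiles 4.86 and 15.6), against 10.1 (4.96 and 16.3) over all peaks. The median log10 of the peak's own p was -6.68, against -8.20 over all peaks, and the median exonic length was 241 bases against 300. More than 1 exon block was spanned by 402 peaks (27.7%), against 30.4% of all peaks. Pseudogene peaks had the lowest median enrichment, 5.34, and were single blocks in 224 of 236 cases. Readthrough peaks had the smallest median p, with a log10 of -12.5, and 60.0% of them spanned several blocks. RefSeq placed a gene on the same strand at the middle of 699 peaks and on the opposite strand alone at 334, while 332 lay in a gene whose strand the tables do not give and 84 lay in no RefSeq gene.

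Between the arms the unnamed peaks had a median deposited log2 fold of 0.15 (quartiles -0.57 and 0.83), beside 0.14 (-0.52 and 0.79) over all peaks. Of them, 138 (9.52%) were called, 101 with a positive and 37 with a negative fold. The same rule called 8.23% of all peaks, 5.74% with a positive and 2.49% with a negative fold, so the share of called unnamed peaks lay near the background. Positive folds made up 73.2% of the called unnamed peaks and 69.7% of all called peaks. With all folds recentred on the median of all peaks, these shares became 57.8% (67 positive, 49 negative) and 53.0%, and the split of directions therefore moved with the zero point of the folds. By class, called shares ran from 7.53% of antisense peaks (17 positive, 11 negative) and 8.0% of uncharacterised transcript peaks (26 and 16), through 10.9% of uncharacterised protein peaks (18 and 6) and 10.9% of readthrough peaks (6 and 0), to 14.4% of pseudogene peaks (30 and 4). Among the 28 TEC peaks 3 were called, all positive.

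The same nearness to the background held under other rules for a call. At an FDR of 0.01, 84 unnamed peaks (5.80%) were called beside 4.99% of all peaks, with 61 positive (all peaks 3.63%) and 23 negative (1.36%). At an unadjusted p of 0.05 there were 289 (19.9%, as over all peaks, 19.9%), with 198 positive (all peaks 12.9%) and 91 negative (7%). With p doubled and adjusted again, 109 (7.52%) remained beside 6.36%, of which 81 were positive (all peaks 4.57%) and 28 negative (1.78%). With recentred folds 116 (8.01%) were called beside 7.78%, where all peaks had 4.13% positive and 3.66% negative calls. Among peaks of like strength the shares were farther apart. Between -50 and -20 in log10 peak p, 18.5% of unnamed peaks sharing bases and 23.3% of pseudogene peaks were called, against 13.9% of all peaks. Of the unnamed peaks in neither group, 2 of 25 were called there.

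**Figure D2:**
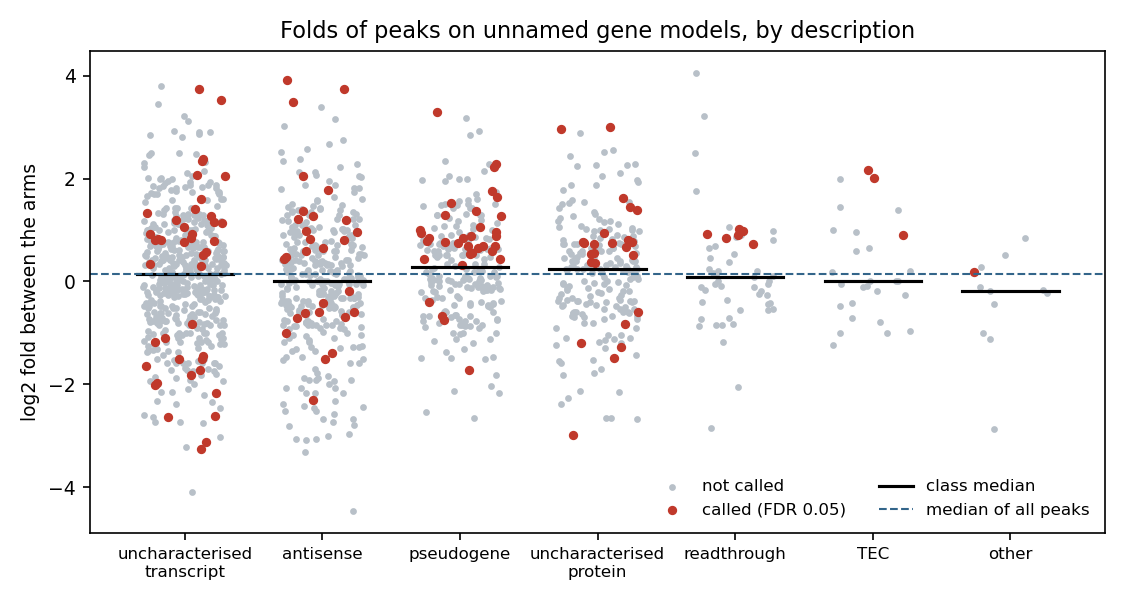
Deposited log2 fold between the arms (vertical axis) of each peak on an unnamed gene model, by description class, with horizontal scatter added at random. Grey points are not called, red points have an FDR of at most 0.05, black lines are class medians and the dashed line is the median of all 22626 peaks (0.14); class medians run from -0.18 to 0.27.

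Where an unnamed peak shared bases with a named peak, the deposited values of the pair were close. Over 482 same-strand members, the folds of the pair differed by a median of 0.12 on the log2 scale and 433 (89.8%) had the same sign. Over 453 opposite-strand members, the median difference was 0.23 and 365 (80.6%) had the same sign. As a description, folds correlated with Pearson r = 0.88 and Spearman rho = 0.88 for same-strand and r = 0.79 and rho = 0.77 for opposite-strand members. The points share libraries and bases and, if counting took no account of strand, reads, and the sources used here do not say whether the counting did so. Both members of a pair are therefore uncertain. Of the 904 pairs, 81 were called in both, 20 in the unnamed peak alone and 32 in the named peak alone. None of the 81 had opposite signs in the authors' deposited table.

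**Figure D3:**
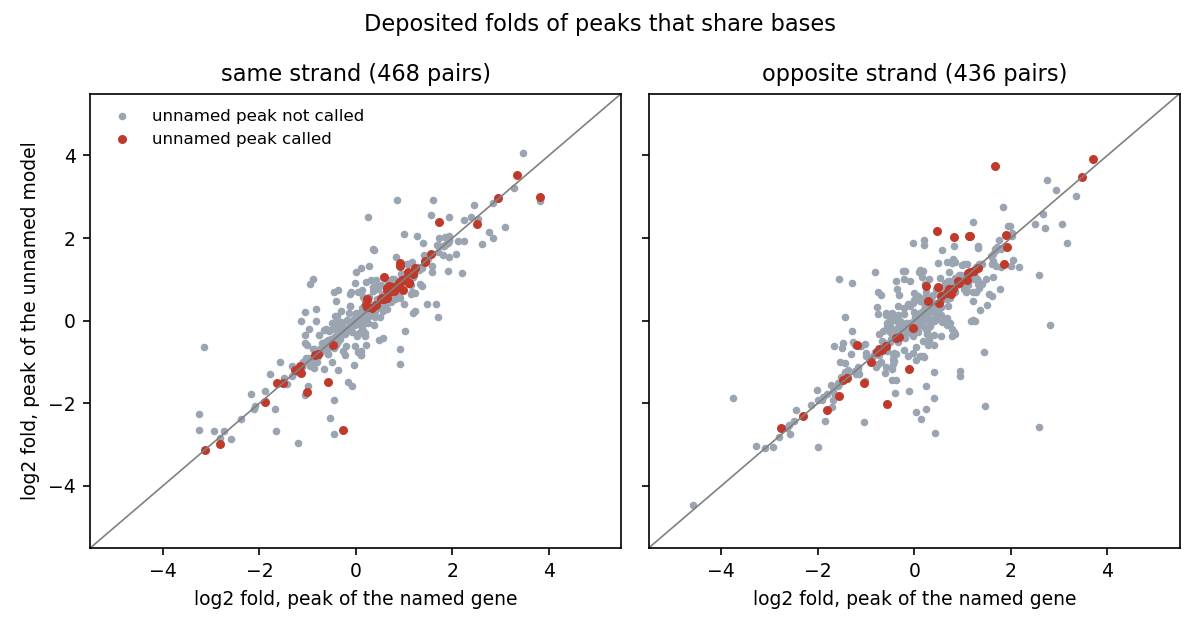
Deposited log2 fold of the unnamed model's peak (vertical axis) against that of the named gene's peak with which it shares most bases (horizontal axis), with each of the 904 unnamed peaks plotted once, 468 with a same-strand and 436 with an opposite-strand partner. Red points are unnamed peaks with an FDR of at most 0.05, and the grey line marks equal folds; most points lie along it on both strands.

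Antisense models gave the clearest view of the opposite-strand pairs. Their description named a gene for 371 of 372 peaks, and 258 of these shared bases with a peak of that very gene. The peak antisense to MC1R, the receptor for melanocyte-stimulating hormone, had the largest called positive fold of all members, 3.91 (FDR 0.0151), and the MC1R peak on the other strand had 3.70 (FDR 0.0347). It covered chr16:89920244-89920632 on the minus strand, and 360 of its 389 bases were shared. The peak antisense to LRRC8E, a subunit of the volume-regulated anion channel, had a log2 fold of -2.31 (FDR 0.00562) and an enrichment of 38.3, and LRRC8E had the same fold. Antisense to RNF40, an E3 ligase that ubiquitinates histone H2B, 2 peaks were called, with -1.40 and -0.71 against -1.39 and -0.68 in RNF40. In PLIN3, a coat protein of lipid droplets, the antisense fold was 1.21 and the sense fold 1.23. The SLC1A5 antisense, opposite a glutamine transporter, had called overlapping peaks with -0.61 and -0.60 against -0.58. For DUSP6, a phosphatase of ERK, the values were 0.98 antisense and 1.10 sense.

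Other antisense peaks differed from the gene they face. Of the 269 antisense peaks that share bases, 34 differed from their partner by over 1 on the log2 scale. Of the 453 opposite-strand members of any class 64 did, and of all 904 members 94 did. Of 27 called antisense peaks that share bases, 8 had a partner that was not called, among them those antisense to CDC42BPB (2.05 against 1.15) and to DPH1 (0.83 against 0.24). The peak antisense to P4HB, a subunit of prolyl 4-hydroxylase, was called at -0.19 (FDR 7.94e-06), while the longer P4HB peak that covers all of it had -0.04 (FDR 0.384). Antisense to BRD2, a bromodomain protein, the fold was -0.60 against -1.18. Neither peak of the pairs farthest apart was called. The antisense to TMEM102 had -2.58 against 2.58 in the gene, and that to SMAD3, a transducer of TGF-beta signals, -2.07 against 1.47, with 62 bases shared. The antisense to SYNM had the largest negative fold of all members, -4.46, with -4.58 in SYNM, and neither was called. The 103 antisense peaks that shared no base with a named peak had a median fold of -0.33, and 1 of them was called. That was the peak antisense to ARMC5, at chr16:31456921-31457490, with 3.74 (FDR 0.0162) and an enrichment of 12.9. The hairpin of MIR922, 81 bases on the minus strand, lay wholly under the plus-strand peak antisense to RUBCN, whose fold of 0.51 was not called (FDR 0.392).

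Uncharacterised protein and readthrough models were in most cases close to the genes whose exons they use. The pair differed by a median of 0.11 for 206 uncharacterised protein peaks, 14 of them by over 1 on the log2 scale, and by a median of 0.06 for 53 readthrough peaks, 2 of them by over 1. The uncharacterised protein ENSG00000284779 had 0.54 where IGF2, a growth factor, had 0.53, and ENSG00000284969 had 0.75 where CD59, an inhibitor of complement, had 0.65. In ENSG00000272822 the fold was 1.62 beside 1.56 in ARF3, a small GTPase of the Golgi. Negative examples were ENSG00000285245 with -1.27 beside -1.14 in RALGDS, an exchange factor for RAL GTPases, and ENSG00000255508 with -1.20 beside -1.26 in TUT1, a terminal uridylyltransferase. The largest called positive fold among them was 3.0 in ENSG00000260643 (FDR 0.00309), beside 3.81 in C16orf46, and the largest called negative was -2.98 in ENSG00000285920 (FDR 0.0447), beside -2.81 in NUSAP1, a spindle protein whose own peak was not called (FDR 0.0741). Of the 24 called uncharacterised protein peaks 5 had a partner that was not called, and the farthest apart of these was ENSG00000257524 with -1.49 against -0.57 (FDR 0.21) in AK1, adenylate kinase.

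Of the 6 called readthrough peaks 3 ran through CTNND1, which encodes the catenin p120. The TMX2-CTNND1 model had 0.91 and 0.85 and the C11orf31-CTNND1 model 0.92, against 1.11 and 0.88 for the CTNND1 peaks they overlap. The 0.91 and 0.92 peaks overlap each other, at chr11:57794065-57804688 and chr11:57794070-57804682, and are not separate signals. They span 6 blocks each, and 51.2% of their bases are shared with the 749-base CTNND1 peak. The 0.85 peak shares 950 of its 960 bases with a separate CTNND1 peak. The other called readthroughs were TSTD1-F11R with 1.02 (F11R 1.01), SYNCRIP-SNX14 with 0.73 on bases of SNHG5 (0.78) and the joined SEC14L2 and MTP18 model with 0.99 (MTFP1 0.96). The peak of the joined PRRG1 and TSPAN7 model had the largest positive fold of all 1449 members, 4.06, without being called (FDR 0.122). The readthrough peaks over 1 from their partner were SLC35D2-HSD17B3, with 2.50 against 0.26 in SLC35D2, and METTL10-FAM53B, with 0.20 against -1.06 in EEF1AKMT2, none of them called.

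Uncharacterised transcripts held both the pairs that matched and the called peaks that differed most from their partner. ENSG00000284707 overlapped ASNS, asparagine synthetase, and had 0.92 (FDR 3.98e-21) and 0.83 (FDR 2.4e-08) against 0.91 and 0.88. ENSG00000264772 had 1.41 beside 1.43 in EIF4A1, a translation initiation helicase. ENSG00000100101 had -3.13 (FDR 0.0055), as had TRIOBP, an actin-binding protein, on the same bases. On the opposite strand, ENSG00000262712 had -2.61 against -2.76 in GLIS2, and ENSG00000232358 had -2.16 (FDR 1e-13) against -1.81 in KCNG1, a potassium channel subunit. In ENSG00000285839 the fold was -2.64 (FDR 0.0288) where the KTI12 peak that covers the same 268 bases and 839 in all had -0.26 (FDR 0.619). ENSG00000228363 had -2.02 (FDR 0.0363) against -0.57 (FDR 0.331) in RNF103, and ENSG00000254829 had 3.75 (FDR 0.038) against 1.67 (FDR 0.0251) in KCTD14. These 3 named partners were longer peaks, which the unnamed peak overlapped in part. Among TEC models, ENSG00000279641 had 2.02 (FDR 3.47e-10) against 0.82 in CTDNEP1, ENSG00000279689 0.90 against 0.93 in SEC24C, and ENSG00000279322 2.17 (FDR 0.0347) against 0.47 (FDR 0.54) in ENTPD6.

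In 4 models, called peaks of both signs stood under 1 identifier, each on a different gene except in 1 case. ENSG00000285897 had 0.78 on SUPT4H1, an elongation factor subunit (0.75), and -1.10 on RNF43, a negative regulator of Wnt receptors (-1.15). ENSG00000255508 had 0.38 on EEF1G and -1.20 on TUT1, and ENSG00000285839 had 0.80 on TXNDC12 and -2.64 on KTI12. The last, a pseudogene of NOP53, had 1.27 and -0.66 within 1 copy. With folds recentred the EEF1G (FDR 0.114) and TXNDC12 (FDR 0.0586) calls were lost, and with p doubled the KTI12 call (FDR 0.0569), so that ENSG00000285897 and the NOP53 pseudogene kept both signs under either. In all, 125 of the 1142 models had a called peak and 13 had more than 1. The same counts were not made over all gene identifiers. These counts of models, and the 4 with both signs, therefore have no background beside them.

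The pseudogenes shared few bases with named peaks, and their parent genes lay elsewhere. A parent symbol was found in the description of 205 of the 236 peaks, for 167 parents, and 175 had a parent with a peak of its own. The sign of the fold was that of the parent's most significant peak in 103 of these 175 (58.9%), and across them the folds correlated with r = 0.14 and rho = 0.13, as a description of points that share libraries. Of the 34 called pseudogene peaks, 25 had a parent with a peak, and in 8 the parent had a called peak of the same sign. Reads of a near-identical copy can be assigned to the parent or to the pseudogene, and the sources used here do not say how the authors' counting split them, so every value of a pseudogene is uncertain.

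Pseudogenes of ribosomal proteins gave 15 of the 34 called pseudogene peaks. They had 30 peaks on 29 models, and all 15 calls were positive, with folds from 0.32 to 1.05. The other 206 pseudogene peaks had 15 positive and 4 negative calls (9.22%). The median log2 fold was 0.57 for ribosomal and 0.13 for the other pseudogenes, and 27 of the 30 ribosomal folds were positive. Their median enrichment was 2.71, low beside 10.1 over all peaks. Recentring left 15 positive calls and added 1 negative. This group was picked out after the values were seen, so no test was made.

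Among its members, the pseudogene of RPS27 on chromosome 3 had 1.05 (FDR 1e-55) and that on chromosome 1 had 0.97 (FDR 1.58e-20), with enrichments of 1.29 and 1.47. RPS27 itself had 0.33 (FDR 0.431). Copies of RPS18 and RPL27 were called with 0.44 and 0.78, and the table listed no peak for these parents. The copy of RPL19 had 0.53 (FDR 1.26e-42) and its parent 0.57 (FDR 5.01e-20). Of the 355 bases of the RPL19 copy's peak, 346 were shared on the same strand with a peak listed for FAM153CP. That peak also had 0.53 (FDR 5.01e-41). A pair of RPS6 copies had 0.68 to 0.79 over 3 peaks, 2 of which overlap, and RPS6 had 0.97 (FDR 3.98e-34). For the RPL6 copy the fold was 0.84 (FDR 1.26e-14) where RPL6 had -0.0045 (FDR 0.665).

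Outside the ribosome, the called positive pseudogene folds ran from 0.68 to 3.29. The copy of UBA2, the SUMO-activating enzyme subunit, had 3.29 (FDR 0.00363) and its parent 1.28 (FDR 0.0324). A copy of SAE1, the partner of UBA2 in that enzyme, had 0.995 (FDR 4.27e-07), while SAE1 had -0.41 (FDR 0.236). The copy of CS, citrate synthase, had 2.28 and 0.85 in separate peaks, and CS had 0.78 (FDR 0.395). The copy of ATP5PB, a subunit of ATP synthase, had 1.37 (FDR 1.58e-07) beside 0.01 in the parent, and that of UQCRB, of respiratory complex III, had 0.68 (FDR 0.000692) beside a called -0.41. On the negative side, the copy of RSL24D1, a factor of ribosome assembly, had -1.73 (FDR 2.19e-05) with -0.36 (FDR 0.0282) in its parent. The HCG4 pseudogene, which overlaps HLA-B, had -0.75 where HLA-B had -0.77.

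**Figure D4:**
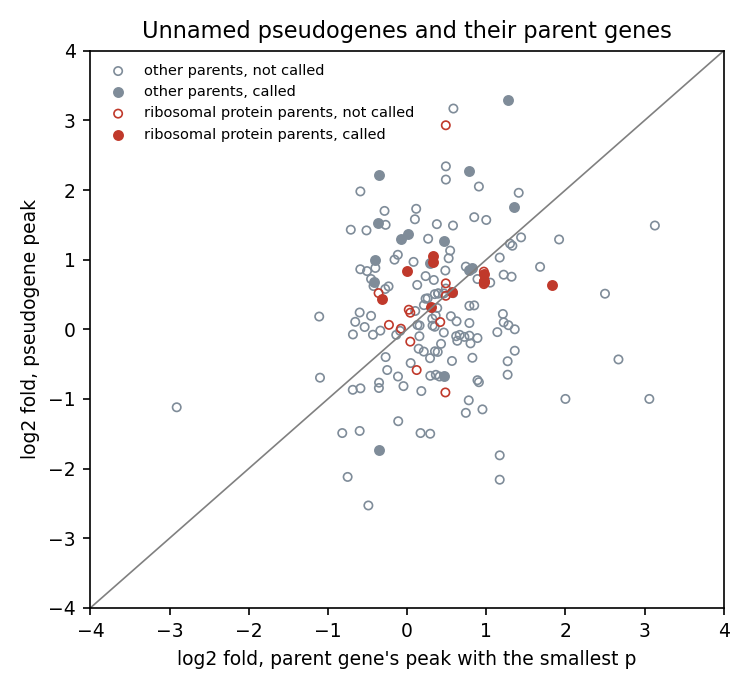
Deposited log2 fold of each unnamed pseudogene peak (vertical axis) against that of the most significant peak of its parent gene (horizontal axis), for the 175 peaks whose parent has a peak. Red marks ribosomal protein parents and filled points are pseudogene peaks with an FDR of at most 0.05; the points spread around the line of equal folds, and r is 0.14.

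Few unnamed peaks were called among those that share no base with a named peak and are not pseudogenes. Of these 338 peaks, 6 (1.78%) were called, 4 positive and 2 negative. They are not all far from named genes: of the 545 peaks that share no base, pseudogenes included, 65 lay in no RefSeq gene. These peaks were weak ones. Their median log10 peak p was -4.36, although their median enrichment was 12.4. Among all peaks with a log10 p above -5, 1.28% were called, and of the 206 in that class from these 338 none were. Between -10 and -5 the shares were 4.13% of all peaks and 1 of 77, and between -20 and -10 they were 8.26% and 2 of 25. Between -50 and -20 they were 13.9% and 2 of 25, and at -50 or below they were 23.0% and 1 of 5. Unnamed peaks that share bases were called in 45 of 150 cases at a log10 p of -50 or below, and pseudogene peaks in 12 of 29 (41.4%), against 23.0% of all peaks there.

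**Figure D5:**
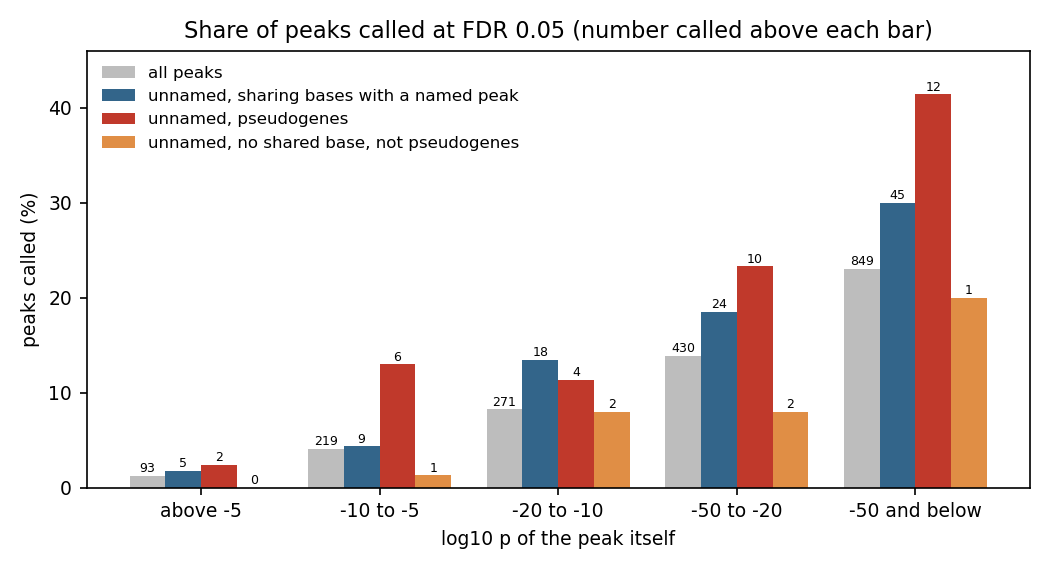
Percentage of peaks called at an FDR of 0.05 (vertical axis) in 5 classes of the peak's own log10 p (horizontal axis), for all peaks, unnamed peaks that share bases with a named peak, unnamed pseudogene peaks (29 of which also share bases) and the remaining unnamed peaks, with the number called above each bar. In all peaks the share rises from 1.28% to 23.0% as p falls, and the remaining unnamed peaks have 6 calls in all.

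The 6 called peaks of this set were of several kinds. The uncharacterised transcript ENSG00000273702, at chr17:59618642-59619297 on the minus strand and in no RefSeq gene, had the highest enrichment of all members, 126, and the largest called negative fold, -3.26 (FDR 0.0269). With its p doubled the FDR was 0.0534. ENSG00000223478, in the divergent transcript ZDHHC12-DT at chr9:128732908-128733137, had -1.65 (FDR 0.0437, or 0.0869 with p doubled), so neither negative call of this set was kept with p doubled. ENSG00000287001, at chr19:50137036-50137332, had 1.60 (FDR 0.000204), and the ARMC5 antisense was described above. ENSG00000270017, at chr15:94855586-94856981, had 0.57 (FDR 0.000741). It lies opposite the NOP53 pseudogene, whose peaks had 1.27 and -0.66, and shares bases with the 1.27 peak, which is itself on an unnamed model.

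The remaining peak belonged to the ribonuclease P RNA component H1, whose RNA cuts the leader from transfer RNA precursors. It covered chr14:20343367-20343511 on the minus strand. RefSeq ends RPPH1, which is read from the minus strand, at position 20343411, so 45 bases of the peak lay inside the gene and 100 before its start, in the H1 promoter. The stretch printed above as lying before PARP2, the neighbouring gene, holds these 100 bases and, at its 3′ end, bases inside RPPH1. Its log10 peak p of -825 was among the 5 smallest of the members, its enrichment was 1.48, low for the table, and its fold of 0.18 had an FDR of 6.31e-31, or 0.0546 with folds recentred. The H1 promoter is also used in vectors that express short hairpins. The labels do not say which promoter the hairpin vectors of these cells carry, and its part in this peak was not tested.

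Of the 5 highest enrichments 1 was called. Besides the peak at 126, the highest enrichments were 125 in an RSL24D1 pseudogene inside MDM2 (fold -0.84, FDR 0.501; MDM2 0.10), 116 in an RPS20 pseudogene inside RSF1 (2.93, FDR 0.263), 78.2 antisense to HSPA12A (0.68, FDR 0.653) and 70.9 in ENSG00000258800 opposite WDR89 (1.02, FDR 0.365). These 4 were not called. By peak p, 3 of the 5 smallest were called. The smallest, listed as 0, belonged to the COG8-PDF readthrough, whose fold was -0.09 (FDR 0.644). After it came the RPL19 pseudogene with a log10 p of -1500 (FDR 1.26e-42) and the uncharacterised transcript ENSG00000255872 on TOMM5 exons with -1400 (fold 0.33, FDR 0.0126). Most models, 920 of 1142, had a single peak. ENSG00000269693, which joins the zinc finger genes ZNF564 and ZNF490, had 7. ENSG00000264058 (SMARCE1 and KRT222), ENSG00000285238 (NOP2 and CHD4) and the uncharacterised protein ENSG00000285827 on KMT2A exons had 6 each, and 5 further models had 5, among them ENSG00000173867 (MRPL46 and DET1). Of these 9 models 2 had a called peak, ENSG00000260643 and ENSG00000285897, both with 5 peaks. The KMT2A one had folds from -1.81 to 2.55, none called.

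Around the threshold, the called members nearest to it were the antisense to MAPKAP1 (1.78, FDR 0.049), the antisense to SIPA1L1 (3.48, FDR 0.0479) and, tied, an uncharacterised protein on IDS exons (1.44, FDR 0.0468) and the weaker peak antisense to RNF40 (-0.71, FDR 0.0468). Just outside lay the antisense to CASZ1 (1.35, FDR 0.0501), an IPMK pseudogene (-2.53, FDR 0.0513) and ENSG00000261790 opposite GFER (-1.11, FDR 0.0513). SIPA1L1 itself had the same fold and FDR as its antisense, and CASZ1 had 1.36 with an FDR of 0.0468 and was called where its antisense was not. Other calls given above were also lost under an alternative. With p doubled these were ENSG00000285920 (FDR 0.0897), ENSG00000228363 (0.0719), ENSG00000254829 (0.0758), the TOMM6 model (0.0525), the antisense to CDC42BPB, the stronger CS pseudogene peak (0.0748), the TEC peaks on SEC24C (0.0709) and ENTPD6 (0.0686) and all 4 nearest the threshold. With folds recentred they included the TOMM6, GGT1 and DUSP6 models (FDR 0.0705, 0.0707 and 0.0531), ENSG00000255872 (0.196), both CS pseudogene peaks, the TEC peaks on SEC24C and ENTPD6, the SEC14L2 and MTP18 model (0.0593), and the peaks at MAPKAP1, SIPA1L1 and IDS. By chromosome, unnamed models took the highest share of peaks on chromosome 16 (9.42%, 108 of 1146), 15 (9.03%) and 12 (8.16%), and the lowest among chromosomes with any on 21 (2.67%) and X (3.36%).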

How the data were processed

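The authors processed 8 libraries (m6A IP and input, either hairpin, 2 per group by their titles), and 1 list of peaks for the whole series was analysed. BWA 0.7.12, HOMER 4.9.1 and GRCh38 are named in the submitters' processing notes without a role, and the peak caller is unstated. The deposited p-value of each peak, per the file headers, stands as a score and its logarithm. The deposited fold enrichment is a linear ratio, and the deposited log2 fold has a p and an FDR as log10 scores, per the file headers. Depth is unknown.

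No test across libraries was made: calls are the authors' deposited FDR. Classes came from the deposited descriptions. Exon blocks were intersected in Python 3.11.15 with pandas 2.3.3, numpy 2.4.6 and scipy 1.17.1 (at least 1 shared base; the partner sharing most bases was used). The deposited p had a maximum of 0.773, with 5783 peaks above 0.5, so p doubled and adjusted again over all 22626 peaks is an alternative, as are an FDR of 0.01, the unadjusted p, stronger peaks and the overlap rule. Folds less their median (0.14), with p read as one-sided, and merged loci were added after seeing the data. That reading cannot give a p above 0.5, so it does not describe those 5783 peaks. Standard errors were read from p below 0.3 and predicted for the other peaks, and the recentred calls are therefore approximate. The recentring was tested on simulated data. It found 199 of 200 changed peaks among 230 calls, so 13.5% of its calls were false at an FDR of 0.05. Using the true standard error also gave 230 calls, and the source of the false calls was not tested. In the data with no shift the recentring returned 1867 calls against 1862. RefSeq tables (GRCh38.p14) gave genes, promoters and strands by position and symbol, since no identifier matched. Peak sequences outside promoter windows were not used here. Named peaks were drawn from the 10 largest called folds of each sign, the 5 models with most peaks, the 5 highest enrichments, the 5 smallest p, the 8 called pairs with the smallest p and the 3 members on each side of the threshold. Not every peak on these lists is named. Others were chosen after their values were seen, and some members are not reported here by name. Members and lists were chosen with earlier results of these data known, and a pattern already seen in the whole table is no independent support.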

Additional observations from a re-analysis of the deposited data

How the results depend on the processing

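Of 101 positive and 37 negative calls, an FDR of 0.01 left 61 and 23, the unadjusted p of 0.05 gave 198 and 91, and leaving out members that share bases with a named peak left 33 and 4. Recentred folds gave 67 positive and 49 negative calls, with 104 of the 138 called members kept at the same sign and 12 others added. The remaining alternatives stayed within 1.5 times of the counts above: 81 and 28 with p doubled, 84 and 32 with a log10 peak p of at most -10, and 97 and 36 with members at 1 locus merged. Sharing of bases ran from 842 members (0.5 or more of the bases shared) to 913 (whole span) against 904. The median fold was 0.11 with 1 peak per model and 0.01 less the median of all peaks, and the median enrichment was 10.7 among members sharing no base.

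No paired analysis was possible because the deposited comparison holds no values per library, and leaving out each replicate could not be run for the same reason. The depth of the libraries limits what can be read from the weak peaks, and it is unknown.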
